A study of Rattus norvegicus and Mus musculus with 12 samples.

Results

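The MCM helicase and origin licensing genes are 10 genes whose products load and start the DNA replication helicase. They are Mcm2, Mcm3, Mcm4, Mcm5, Mcm6 and Mcm7, which encode the 6 subunits of the helicase ring, the loading factors Cdc6 and Cdt1, the licensing inhibitor Gmnn and the initiation factor Mcm10. The members were found by gene name, and all 10 had a row among the 19687 genes of the rat table and among the 28603 genes of the mouse table. The list was chosen with the model against control values of these same libraries already known. The values of the 10 genes in both comparisons are therefore given as a description. Their calls in the fit over all genes are counted below, but the choice of the genes bears on these calls. Nothing is supported with the values or the calls.

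Gene expression was measured by RNA-seq in 12 libraries of primary articular chondrocytes of newborn animals at passage 1, with 3 libraries in each of 4 groups. The RC group (rat control) and the RM group (rat model) came from SD rats, and the MC group (mouse control) and the MM group (mouse model) from mice that the study names as C57BL/6. The strain labels of the mouse libraries run from C57BL/6 to C57BL/9 from library to library. The RM and MM chondrocytes were exposed for 24 h to the inflammatory cytokine IL-1β at 20 ng/ml, and the RC and MC chondrocytes were kept without it. The 3 samples of a group are described as independent, and whether animals were pooled is not given in the sources used here.

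Before S phase, the origin recognition complex and Cdc6 bind replication origins, and Cdt1 brings the Mcm2 to Mcm7 ring to them, so that each origin is licensed for a single round of replication. Geminin, the product of Gmnn, holds Cdt1 inactive after S phase has begun, and kinases with Mcm10, Cdc45 and the GINS complex turn the loaded ring into an active helicase. Transcription of these genes is driven by E2F factors, which the RB family restrains, so their mRNAs are high in cycling cells and low in cells that have left the cycle. In bulk RNA, fewer cycling cells and less RNA per cell cannot be told apart.

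Because the members are known E2F targets, their promoter sequences are shown where they hold an E2F motif. Promoter windows reaching from 250 bases before to 50 bases after the start site were taken from RefSeq for the rat assembly GRCr8, which is not the build named for the deposited files (Rnor_6.0). A window was matched for 8 of the 10 members and not for Mcm4 and Cdc6. The E2F motifs searched on both strands were TTTCCCGC, TTTGGCGC, TTTCGCGC and TTTGCCGC, some of which overlap each other when read on opposite strands. For the helicase subunits, the match nearest to the start site among those upstream, or the first of the overlapping pair that holds it, is printed 5′ to 3′ on the strand of the gene with the motif in capitals.
Mcm2 (chr4:122918090-122918119, minus strand): cgtgacccggtTTTCGCGCgaaaacccgtg
Mcm3 (chr9:30733734-30733763, minus strand): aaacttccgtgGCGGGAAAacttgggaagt
Mcm5 (chr19:13488794-13488823, plus strand): ccaggttggttTTTCCCGCgaaagtcggct
Mcm6 (chr13:42404473-42404502, minus strand): tggcgtctgctTTTGGCGCgaaattagcgt
Mcm7 (chr12:22163212-22163241, minus strand): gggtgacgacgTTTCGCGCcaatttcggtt
The motif began 14 bases before the start site in Mcm2, 6 bases before it in Mcm3, 8 bases before it in Mcm5, 139 bases before it in Mcm6 and 52 bases before it in Mcm7. In Mcm7 the last base of the E2F match is the first base of a CCAAT box on the same strand.

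An E2F motif was present in 5 of the 5 windows of the helicase subunits and in 7 of the 8 windows of the members. In Cdt1 and Gmnn it lay after the start site, at 8 and 33 bases in Cdt1 and at 39 bases in Gmnn, and Mcm10 held no match. The motif was present in 2.14% of all 33469 promoter windows, in 3.96% of the 10692 windows matched to a gene tested in rat, and in 13 of the 40 windows of the wider replication list described below (32.5%). The CCAAT box was found in 6 of the 8 member windows against 37.1% of the windows of genes tested. The CHR motif TTTGAA, known from promoters of late cell cycle genes, was found in 1 of the 8, Mcm2, against 12%. A match is only a run of letters, and binding was not measured.

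**Figure D1:**
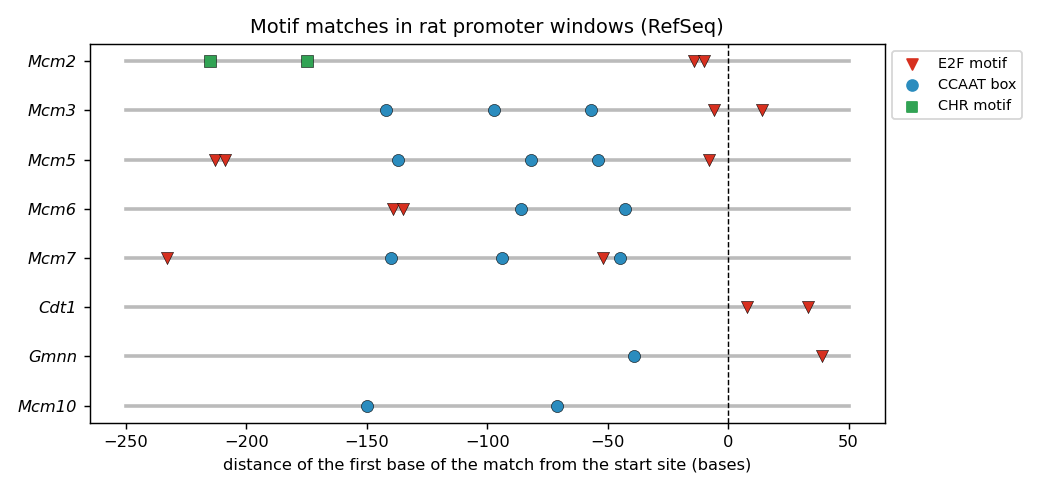
Matches to the E2F motifs, the CCAAT box and the CHR motif in the rat promoter windows of 8 licensing genes. The horizontal axis is the distance in bases of the first base of each match from the start site, which the dashed line marks. E2F matches lie in 7 of the 8 windows, and Mcm10 has none. Mcm2, Mcm3 and Mcm5 each have a match that begins within 14 bases upstream of the start site, and Mcm3 and Mcm5 have others elsewhere.

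The total count per library was between 20169272 and 25903459 in rat and between 16841580 and 20048322 in mouse. Il6 and Mmp3, which IL-1β is known to induce, were called higher in both model groups, with mean Mmp3 values of 13.3 and 817 FPKM in RC and RM and of 0.954 and 7967 FPKM in MC and MM. FPKM, the unit of the deposited levels, is the count scaled by gene length and by the total of the library, with no other scaling. Fitted log2 fold changes (model against control) and their standard errors (SE) were computed from the counts with edgeR after TMM scaling, which also corrects for the part of a library that a few genes take up. The TMM factors were near 1 in rat, between 0.994 and 1.01, but were 1.10 in MC and between 0.905 and 0.911 in MM. FPKM differences in mouse are therefore shifted towards lower values in MM against the fitted ones, and the median of all genes tested moved from −0.02 to −0.30 on the log2 scale when library size alone was used.

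All 10 members passed the filter on low counts in both species, with 273 to 6710 counts per library in rat and 36 to 1494 counts in mouse. Expression of all 10 was higher in every RM library than in any RC library and lower in every MM library than in any MC library. Over the genes tested, 25.5% of 13303 rat genes were higher in RM with no overlap of FPKM, and 54.9% of 14774 mouse genes were lower in MM with no overlap. The median fitted log2 fold change of the members was 0.96 in rat, with values from 0.56 to 1.38, and −1.47 in mouse, with values from −2.55 to −0.30. The medians over all genes tested were 0.01 in rat and −0.02 in mouse.

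**Figure D2:**
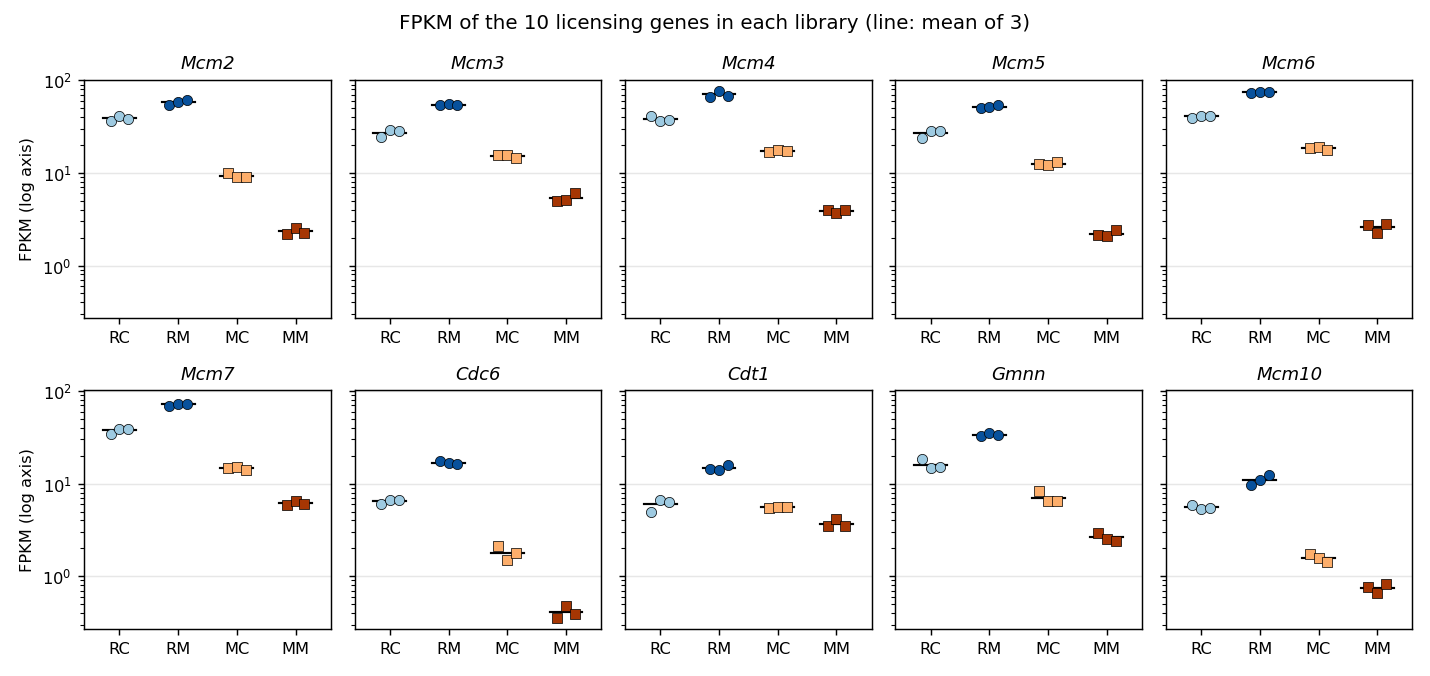
FPKM of the 10 licensing genes in each library on a log axis, with 1 panel per gene, points for the 3 libraries of each group and a line at their mean. In each panel the RM points lie above the RC points and the MM points below the MC points. The gap in mouse is widest for Mcm6 (18.4 and 2.59 FPKM on average) and narrowest for Cdt1 (5.53 and 3.70 FPKM).

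Mcm2, whose product also binds histones at the replication fork, was measured at 36.3, 41.4 and 38.5 FPKM in the RC libraries and at 54.1, 58.6 and 60.7 FPKM in the RM libraries. It stood at 10.1, 9.01 and 8.94 FPKM in MC and at 2.22, 2.54 and 2.27 FPKM in MM. The groups did not overlap in either species. Its fitted log2 fold change was 0.56 ± 0.077 (SE, n = 3 per group) in rat, the smallest rat value of the 10, and −1.72 ± 0.066 in mouse. The gene lies at chr6:88883474-88898780 on the minus strand in GRCm38.

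Mcm3, whose product contacts the origin recognition complex and Cdc6 during loading, was at 24.3, 29.2 and 28.2 FPKM in RC and at 54.2, 56.0 and 53.8 FPKM in RM. The mouse values were 15.5, 15.7 and 14.6 FPKM in MC and 5.03, 5.07 and 6.14 FPKM in MM. RM libraries were close to each other and clear of RC, and the highest MM library stayed far under the lowest MC library. Fitted log2 fold changes were 0.99 ± 0.082 in rat and −1.22 ± 0.066 in mouse. Mcm3 lies at chr1:20802968-20820312 (GRCm38, minus strand).

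Mcm4, a main substrate of the kinase Cdc7 at origin firing, was at 41.5, 36.6 and 37.3 FPKM in RC and at 66.7, 77.6 and 67.7 FPKM in RM. In mouse it was at 16.7, 17.5 and 17.1 FPKM in MC and at 3.97, 3.70 and 3.97 FPKM in MM. The first RC library was the highest of its group for Mcm4, whereas it was the lowest for the other 5 subunits. The fitted values were 0.86 ± 0.084 in rat and −1.86 ± 0.066 in mouse, at chr16:15623897-15637400 (GRCm38, minus strand).

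Mcm5, which with Mcm2 forms the gate through which DNA enters the ring, was at 24.1, 28.1 and 28.1 FPKM in RC and at 50.7, 50.9 and 53.7 FPKM in RM. Its mouse values were 12.6, 12 and 13.1 FPKM in MC and 2.15, 2.06 and 2.41 FPKM in MM. All RM values lay above 50 FPKM and no RC value reached 30 FPKM. The log2 fold change was 0.94 ± 0.080 in rat and −2.24 ± 0.078 in mouse, a 4.71-fold lower fitted level. Mouse Mcm5 lies at chr8:75109569-75128439 (GRCm38, plus strand).

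Mcm6, which binds Cdt1 during loading, was at 38.9, 41.7 and 41.7 FPKM in RC and at 73.5, 74.7 and 74.7 FPKM in RM. The mouse libraries gave 18.7, 18.8 and 17.8 FPKM in MC and 2.73, 2.25 and 2.81 FPKM in MM. Mcm6 had the highest mean level of the 10 genes in RC, RM and MC, and was the sixth in MM. Its log2 fold change was 0.85 ± 0.065 in rat and −2.55 ± 0.065 in mouse, the lowest mouse value of the 10. The fitted level was 5.87-fold lower in MM than in MC, and the ratio of the mean FPKM was 7.11, a gap that the TMM factors make. The gene lies at chr1:128331590-128359664 (GRCm38, minus strand).

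Mcm7, whose product is ubiquitylated when the helicase is unloaded at the end of replication, was at 34.7, 39.3 and 38.5 FPKM in RC and at 69.1, 73.1 and 73.3 FPKM in RM. It was at 14.9, 15.2 and 14.0 FPKM in MC and at 5.92, 6.45 and 5.96 FPKM in MM. Its mouse difference was the smallest of the 6 subunits, with a log2 fold change of −0.99 ± 0.058, beside 0.92 ± 0.074 in rat. Mouse Mcm7 (chr5:138164583-138172422, GRCm38, minus strand) holds the miRNA genes Mir25, Mir93 and Mir106b, and 321 of its exonic bases (7.25%) overlap Ap4m1 and 64 overlap Cops6, both on the opposite strand. The library kit named by the study does not mark strand, so reads from the shared bases cannot be told apart, and their part in the Mcm7 value was not tested. No other member shared exonic bases with a gene in the annotation used (GENCODE M21).

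Together the 6 subunits summed to 209 ± 8.58 FPKM in RC and 381 ± 11.5 FPKM in RM (mean ± SD, n = 3), a ratio of 1.82. The sums were 87.4 ± 1.62 FPKM in MC and 22.5 ± 0.876 FPKM in MM, 3.88-fold lower. The fitted log2 fold changes of the subunits spanned 0.43 in rat, from 0.56 to 0.99, and 1.57 in mouse, from −2.55 to −0.99. The span was wider in mouse, beside an SE of at most 0.084 in rat and 0.078 in mouse, and the difference of the spans was not tested.

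The share of each subunit in the summed FPKM of a library is not moved by library scaling. In MC, Mcm6 took 21.1%, 21.3% and 20.8% of the sum, and in MM 12.4%, 10.2% and 11.9%. The share of Mcm7 was 16.8%, 17.2% and 16.4% in MC and 26.9%, 29.2% and 25.3% in MM, and that of Mcm3 went from a mean of 17.5% to 24.0%. The share of Mcm5 was lower, at 14.4 ± 0.835% in MC and 9.77 ± 0.439% in MM, whereas Mcm2 took 10.7 ± 0.636% and 10.4 ± 0.989%, with overlapping libraries. In rat the make-up of the sum stayed closer, and the widest gap was that of Mcm2, with 18.5 ± 0.593% in RC and 15.2 ± 0.575% in RM. Mcm6 took 19.5% in both rat groups.

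**Figure D3:**
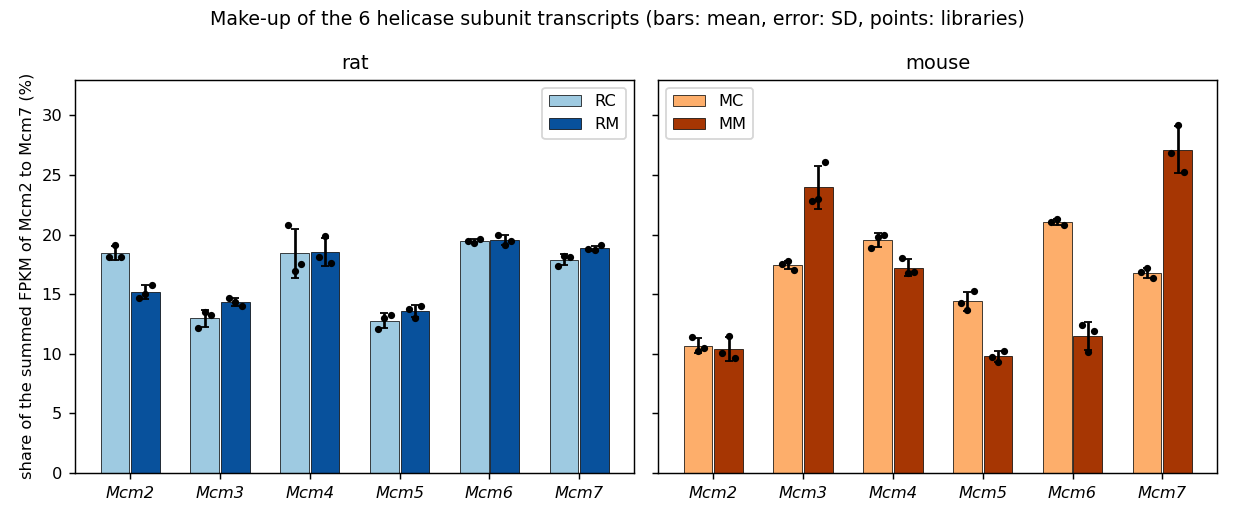
Share of each helicase subunit in the summed FPKM of Mcm2 to Mcm7, in percent, for rat (left) and mouse (right). Bars are the mean of 3 libraries, error bars the SD and points the libraries. In mouse the Mcm6 share is 21.1% in MC and 11.5% in MM and the Mcm7 share 16.8% and 27.1%, whereas in rat no mean differs by as much.

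The ratio of Mcm7 to Mcm6 was 0.798, 0.807 and 0.785 in MC and 2.17, 2.87 and 2.12 in MM. In rat it was 0.919 ± 0.0251 in RC and 0.967 ± 0.0226 in RM. The coefficient of variation over the 6 subunit levels was 22.5 ± 2.01% in MC and 45.1 ± 2.62% in MM, with no overlap of libraries, and 18.5 ± 3.33% in RC and 15.8 ± 1.39% in RM, with overlap. These ratios rest on the same libraries and contrast as the choice of the genes, and no test was made on them.

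Cdc6, the ATPase that loads the helicase with the origin recognition complex, was at 5.98, 6.68 and 6.68 FPKM in RC and at 17.6, 16.7 and 16.4 FPKM in RM. In mouse it was at 2.10, 1.50 and 1.79 FPKM in MC and at 0.353, 0.479 and 0.394 FPKM in MM, with only 36 counts in its lowest library. Cdc6 had the highest rat log2 fold change of the 10, 1.38 ± 0.081, which is 2.59-fold higher in RM. Its mouse value was −1.85 ± 0.169, with the largest SE of the members, and −0.98 with limma on log2(FPKM + 1). Cdc6 lies at chr11:98907801-98923940 (GRCm38, plus strand).

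Cdt1, the factor that delivers the helicase ring to origins, was at 4.90, 6.63 and 6.41 FPKM in RC and at 14.5, 14.0 and 16.0 FPKM in RM. The mouse values were 5.47, 5.56 and 5.57 FPKM in MC and 3.48, 4.14 and 3.50 FPKM in MM. The MC libraries were nearly equal, and each MM library was lower. Cdt1 combined the second highest value in rat, 1.30 ± 0.119, with the value nearest to 0 in mouse, −0.30 ± 0.096, which is 1.23-fold lower. With library size alone the mouse value was −0.58. Its position is chr8:122568015-122573554 (GRCm38, plus strand).

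Gmnn, the inhibitor of Cdt1, was at 18.2, 14.8 and 15 FPKM in RC and at 32.5, 35.0 and 33.2 FPKM in RM. Its mouse values were 8.25, 6.44 and 6.54 FPKM in MC and 2.93, 2.55 and 2.42 FPKM in MM. The first control library was the highest of its group in both species, and neither pair of groups overlapped. The log2 fold change was 1.05 ± 0.096 in rat and −1.14 ± 0.144 in mouse. Gmnn lies at chr13:24751845-24761923 (GRCm38, minus strand).

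The balance of Cdt1 and its inhibitor can be read as the ratio of their FPKM. The Cdt1 to Gmnn ratio was 0.268, 0.447 and 0.426 in RC and 0.446, 0.400 and 0.481 in RM, and the groups overlapped. In mouse it was 0.663, 0.863 and 0.852 in MC and 1.19, 1.62 and 1.44 in MM. Every MM library was above every MC library, so Gmnn mRNA was lower relative to Cdt1 mRNA in MM. The Cdc6 to Cdt1 ratio was 0.325 ± 0.0573 in MC and 0.11 ± 0.00755 in MM, and 1.09 ± 0.115 in RC and 1.14 ± 0.103 in RM. A ratio of mRNA levels says nothing of the proteins, which are controlled by degradation in the cycle.

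Mcm10, which is no part of the ring and acts when the loaded helicase is activated, was at 5.82, 5.26 and 5.52 FPKM in RC and at 9.61, 11 and 12.4 FPKM in RM. It stood at 1.72, 1.56 and 1.43 FPKM in MC and at 0.772, 0.665 and 0.825 FPKM in MM. It was the lowest of the 10 genes in RC, RM and MC, and in MM it stood above Cdc6 in every library. The log2 fold change was 0.98 ± 0.10 in rat and −0.78 ± 0.124 in mouse, at chr2:4989714-5012791 (GRCm38, minus strand).

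**Figure D4:**
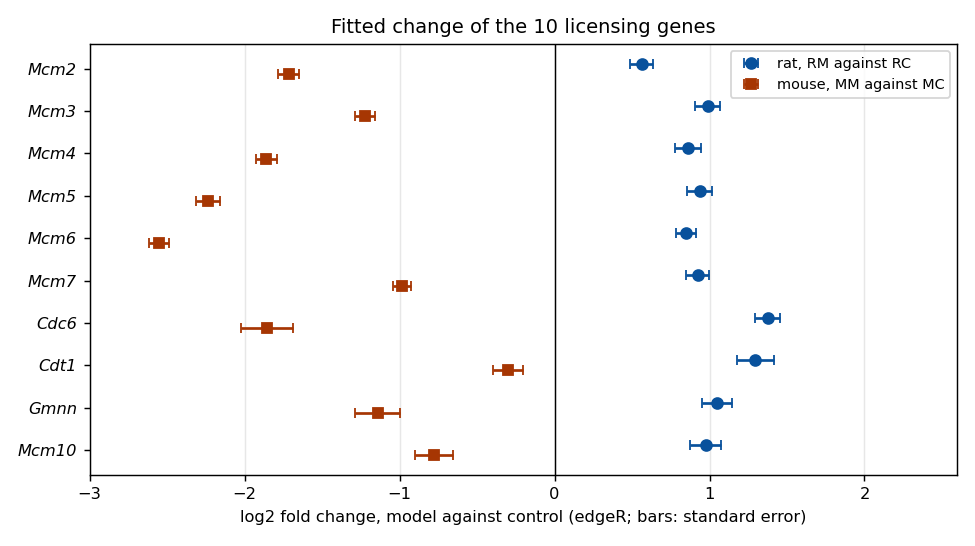
Fitted log2 fold change of the 10 licensing genes, model against control, with the standard error as bars, for rat (circles) and mouse (squares). Rat values lie between 0.56 and 1.38, all right of 0, and mouse values between −2.55 and −0.30, all left of 0. The mouse values are spread more widely than the rat values.

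By the levels of mean FPKM the helicase subunits stood above the other 4 genes in RC, RM and MC, and Gmnn came next. In RC, neighbours in the order Mcm6, Mcm2, Mcm4 and Mcm7 overlapped between libraries, as did Mcm3 with Mcm5, and as did Cdc6, Cdt1 and Mcm10. In RM, Mcm7 overlapped with Mcm4 and Mcm2 with Mcm3. Mcm4 in RM (66.7 to 77.6 FPKM) also overlapped with Mcm6 (73.5 to 74.7 FPKM), so the first place of Mcm6 there is not distinct. In MC only Mcm3 with Mcm7 and Cdc6 with Mcm10 overlapped among neighbours. In MM the order was Mcm7, Mcm3, Mcm4, Cdt1, Gmnn, Mcm6, Mcm2, Mcm5, Mcm10 and Cdc6. There Mcm7 overlapped with Mcm3, Cdt1 with Mcm4, Gmnn with Mcm6, Mcm6 with Mcm2 and Mcm2 with Mcm5, so these places in the order are not distinct.

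At an adjusted P under 0.05, 10 of the 10 members were called higher in RM, beside 18.3% of all rat genes tested, and 10 of the 10 lower in MM, beside 37.7% of all mouse genes tested. The study names a fold change greater than 0.85, a P value below 0.05 and 1 FPKM or more in a library. These were read here as an absolute log2 fold change of at least 0.85 and an unadjusted P, which the study does not spell out. By that reading 9 were counted in rat and 8 in mouse, beside 4.64% and 13.0% of the genes tested. Mcm2 missed the criteria in rat at 0.56, where Mcm6 was just inside at 0.851, and Mcm10 and Cdt1 missed them in mouse at −0.78 and −0.30. Since the genes were chosen on these contrasts, nothing is read from the counts. Leaving out 1 library in turn gave 7 to 9 members in rat.

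The genes that share this pathway but are no members were tested. Their list was also chosen with earlier results of these data known, so the counts of calls below are a description. The list holds 49 genes, of which 46 were tested in rat and 47 in mouse. In rat 34 rose, none fell and 12 did not pass (edgeR, adjusted P under 0.05 over all genes tested, where 18.3% were called higher and 16.8% lower). None fell at an unadjusted P under 0.05 either, and DESeq2 and limma also called 0 lower. Without the first RC library, 1 gene, Ddb1, was called lower. In mouse 32 fell, 9 rose (7 to 9 when a library was left out) and 6 did not pass, where 37.7% of all genes were called lower and 37.4% higher. With library size alone the mouse split was 39 lower and 2 higher, and over all mouse genes 8077 lower and 3697 higher in place of 5564 and 5521. Orc1, Orc2, Orc5, Mcm9 and Kat7, which did not pass in mouse after TMM scaling, were called lower with library size alone. The median log2 fold change of the list was 0.60 in rat and −0.58 in mouse.

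Of the 46 genes tested in both species, 27 rose in RM and fell in MM, beside 797 of all 10931 genes tested in both (7.29%). Whether the response differed between the species (mouse log2 fold change less the rat one) was tested in 1 fit over all 4 groups. It was below 0 for 36 of the 46, above 0 for 2, Rb1 and E2f4, and did not pass for 8. Over the 10912 genes of that fit, 32.3% were called lower in mouse and 31.4% higher. With library size alone 41 of the 46 passed below 0 and only Rb1 above it.

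Origin firing genes moved in opposite directions in the species. In rat 16 of the 17 rose, and in mouse 16 of the 17 fell, beside 18.3% and 37.7% of all genes tested. The difference between the species passed below 0 for 17 of 17, beside 32.3% of all genes of that fit. Ccna2, cyclin A2, which activates the S phase kinase Cdk2, was at 39.0, 35.5 and 37.9 FPKM in RC and 57.8, 65.6 and 69.5 FPKM in RM, against 16.6, 17.6 and 18.3 FPKM in MC and 2.46, 2.22 and 2.55 FPKM in MM. It rose by 0.76 ± 0.084 on the log2 scale in rat (edgeR, adjusted P = 6.61e-05) and fell by 2.59 ± 0.070 in mouse (adjusted P = 1.97e-41). Topbp1, which helps recruit Cdc45 to origins, rose by 1.03 ± 0.109 in rat (adjusted P = 4.94e-05) and fell by 1.04 ± 0.053 in mouse (adjusted P = 1.37e-26). Gins1, Gins3 and Gins4 of the GINS complex passed in both species in these directions. Gins2 fell by 1.91 ± 0.128 in mouse, and its rat value of 0.29 ± 0.104 did not pass (edgeR, adjusted P = 0.0547). The rat value passed with library size alone (0.30, edgeR, adjusted P = 0.0455) and without RC replicate 2 (0.39, adjusted P = 0.0105). The kinase Cdc7 and its activator Dbf4 rose in rat, by 0.84 ± 0.118 and 1.26 ± 0.220, and fell in mouse, by 0.79 ± 0.139 and 0.60 ± 0.072.

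Ccne2, a cyclin E gene, was the exception in mouse. It rose by 1.33 ± 0.199 in rat (edgeR, adjusted P = 0.000511), but its mouse value was 0.08 ± 0.108 (adjusted P = 0.486) and turned to −0.20 with library size alone. Ccne1 fell in mouse by 1.27 ± 0.105 (adjusted P = 3.97e-17) and rose in rat by 0.64 ± 0.087.

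The origin recognition complex genes moved less evenly. Orc1, the subunit whose level follows the cell cycle, rose by 1.38 ± 0.101 in rat (edgeR, adjusted P = 3.64e-06), from 3.94 to 10.4 FPKM on average, and its mouse value was −0.25 ± 0.176 (adjusted P = 0.196). Orc6 rose by 0.62 ± 0.096 in rat and fell by 0.87 ± 0.094 in mouse. Orc4 rose in both species, by 0.56 ± 0.115 and 0.35 ± 0.070, although its mouse value was 0.07 with library size alone. Orc2 rose in rat by 0.41 ± 0.112, a call lost when any of 4 libraries was left out (RC 2, RC 3, RM 1 or RM 2, with adjusted P up to 0.0749). Orc3 was called higher in mouse at 0.14 (edgeR, adjusted P = 0.0203), but was called lower with library size alone (−0.14, adjusted P = 0.0211) and lost its call without MC replicate 1 or MM replicate 2. Orc5 passed in neither species. Mcm8, a helicase of DNA repair related to the ring, rose by 0.89 ± 0.190 in rat and fell by 1.32 ± 0.177 in mouse, and its partner Mcm9 passed in neither.

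Among the regulators of licensing, 6 of 9 tested rose in rat, beside 18.3% of all genes tested. In mouse 7 fell and 1 rose, beside 37.7% and 37.4% of all genes tested. Fbxo5, which keeps the anaphase-promoting complex inactive and so protects geminin from degradation, was at 6.77, 4.53 and 6.02 FPKM in RC and 13.0, 14.7 and 12.9 FPKM in RM. It was at 8.25, 6.61 and 7.42 FPKM in MC and at 0.847, 0.919 and 1.31 FPKM in MM. It rose by 1.21 ± 0.140 in rat (edgeR, adjusted P = 9.21e-05) and fell by 2.59 ± 0.153 in mouse (adjusted P = 1.08e-23). Its difference between the species, −3.80 ± 0.230 (adjusted P = 2.51e-10), had the largest size in the list. Dtl and Skp2, the substrate receptors of the ligases that degrade Cdt1 in S phase, rose in rat by 1.30 ± 0.107 and 0.33 ± 0.089 and fell in mouse by 1.01 ± 0.099 and 1.10 ± 0.11. The rat call of Skp2 was lost without RC replicate 3 or RM replicate 2. Cul4b, a scaffold of 1 of these ligases, rose by 0.42 ± 0.142 in rat, a call lost in 5 of the 6 fits that left out a rat library, and fell by 0.39 ± 0.052 in mouse. Cul4a was the 1 regulator called higher in mouse, at 0.09 (edgeR, adjusted P = 0.0206). That call was lost without MC replicate 1, MC replicate 2 or MM replicate 1, and Cul4a was instead called lower with library size alone (−0.19, adjusted P = 9.37e-06) and with limma (−0.18, adjusted P = 0.000933). Mcmbp, which binds the Mcm proteins, rose by 0.52 ± 0.080 in rat and fell by 0.21 ± 0.057 in mouse. Kat7 rose in rat by 0.24 ± 0.073 without a call in mouse, and its rat call was lost in 4 of those 6 fits. Ddb1 and Lrwd1 fell in mouse by 0.30 ± 0.027 and 0.37 ± 0.085, with rat values of −0.14 and 0.09 that did not pass. Mcidas, of the geminin family, was below the filter in both tables, and Gmnc was below it in rat and had no row in mouse.

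In the E2F and RB family 7 of the 12 genes tested were called higher in rat, and 7 of 13 lower and 6 higher in mouse, beside 18.3% of all genes tested in rat and 37.7% and 37.4% in mouse. E2f7 and E2f8, repressors that are themselves induced in the cycle, rose in rat by 0.89 ± 0.132 and 1.08 ± 0.085 and fell in mouse by 1.56 ± 0.125 and 2.04 ± 0.158. E2f2 and the pocket protein gene Rbl1 had the same pair of directions, with 0.59 ± 0.123 and 0.85 ± 0.128 in rat and −0.89 ± 0.186 and −1.62 ± 0.091 in mouse. Rb1, which restrains the activator E2Fs, was at 5.01, 4.01 and 4.44 FPKM in RC and 7.53, 6.47 and 6.33 FPKM in RM, and at 2.47, 2.50 and 2.37 FPKM in MC and 5.29, 4.99 and 5.36 FPKM in MM. It rose in both species, by 0.58 ± 0.113 in rat (edgeR, adjusted P = 0.00288) and by 1.37 ± 0.077 in mouse (adjusted P = 8.43e-25), and the difference was 0.80 ± 0.134 (adjusted P = 6.46e-05). E2f4, a partner of the pocket proteins, rose by 0.46 ± 0.055 in mouse. E2f1, a main activator, was at 13.9 ± 0.595 FPKM in MC and 13.9 ± 0.425 FPKM in MM, had a fitted value of 0.27 that turned to −0.01 with library size alone, and has no row in the rat table. E2f3, E2f5 and E2f6 were called higher in mouse by 0.29, 0.35 and 0.36, and these calls were lost with library size alone.

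**Figure D5:**
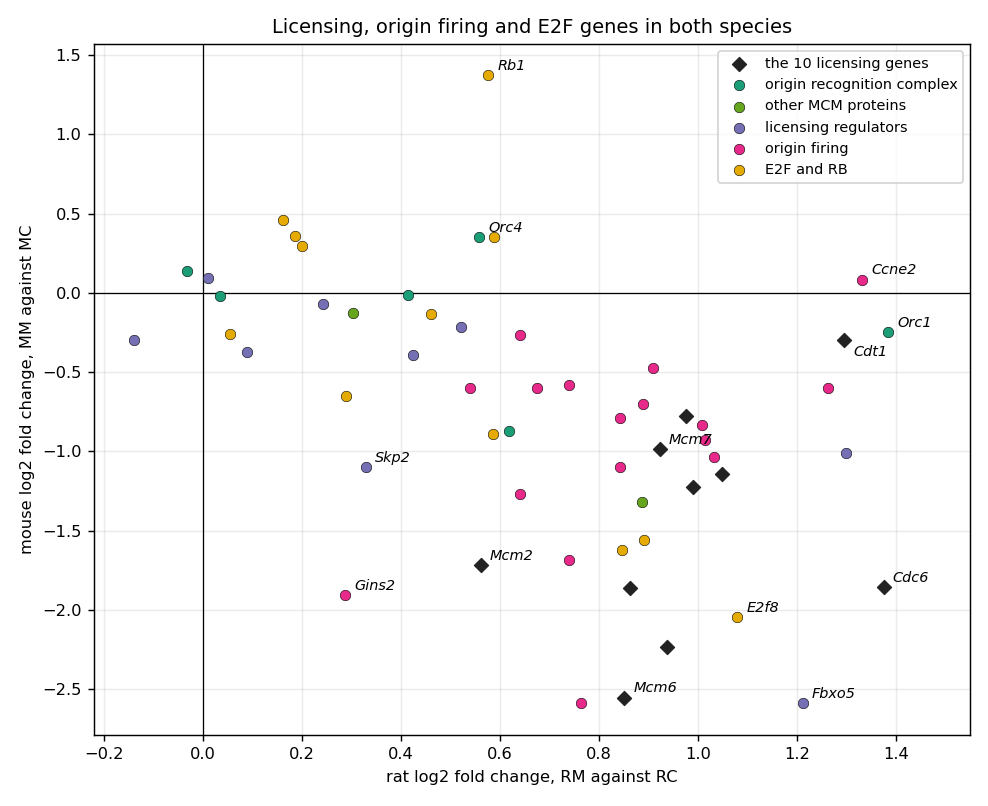
Fitted log2 fold change in rat (horizontal axis) and mouse (vertical axis) for the 10 licensing genes (diamonds) and the genes of the replication list tested in both species (circles, coloured by role). Most points lie in the lower right part, higher in RM and lower in MM. Rb1 stands apart with 0.58 in rat and 1.37 in mouse. Cdt1, Orc1 and Ccne2 lie at high rat values with mouse values of −0.30, −0.25 and 0.08. Of these mouse values only that of Cdt1 was called after TMM scaling.

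Beside the licensing genes, 8 other cell cycle genes were counted, on a list also chosen with earlier results of these data known. All 8 rose in rat, beside 18.3% of all genes tested, with a median log2 fold change of 0.88. In mouse 7 fell and 1 was called higher, beside 37.7% and 37.4% of all genes tested. The mouse median was −2.28, beside −1.47 for the members. The difference of these medians was not tested. Aurkb, a mitotic kinase, fell in mouse by 2.70 ± 0.101 (edgeR, adjusted P = 7.91e-34), and Mki67, the gene of the proliferation antigen Ki-67, by 2.32 ± 0.045. Pcna, the clamp that travels with the replication fork and so acts beside the helicase, was at 70.2, 60.4 and 70.6 FPKM in RC and 120, 134 and 121 FPKM in RM and rose by 0.88 ± 0.086. In mouse it was at 45.1, 44.5 and 41.7 FPKM in MC and 42.3, 40.7 and 42.4 FPKM in MM. Its fitted mouse value of 0.21 ± 0.041 was called higher, but it was −0.07 with library size alone and −0.06 with limma on log2(FPKM + 1), neither of which passed. The change of Pcna still differed between the species, by −0.67 (edgeR, adjusted P = 1.02e-05).

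The profile of a gene was compared with the mean profile of Mcm2 to Mcm7 as the root mean square difference of centred log2 CPM over the 12 libraries. The 5 genes nearest to it outside the lists were Rrm1 (0.0737), Ncaph (0.0789), Lig1 (0.0966), Adam12 (0.0992) and Pttg1 (0.0993), in log2 units. Ccnb1, on the list of other cell cycle genes, was at 0.0748, nearer than any of Mcm2 to Mcm7. Rrm1, a subunit of ribonucleotide reductase, which makes the DNA building blocks, had 0.80 ± 0.068 in rat and −1.74 ± 0.048 in mouse. Lig1, the ligase that joins Okazaki fragments, had 0.75 ± 0.099 and −1.69 ± 0.069, and Ncaph of the condensin complex 0.74 ± 0.082 and −1.68 ± 0.084. Adam12, a metalloprotease gene, had 0.90 ± 0.065 and −1.70 ± 0.106, and Pttg1, securin, 0.93 ± 0.075 and −1.75 ± 0.105. The distance of Mcm4 was 0.0896, and those of Mcm2, Mcm5 and Mcm3 were 0.127, 0.175 and 0.204. Mcm7 and Mcm6 were farther, at 0.278 and 0.286. The mean profile holds the values of Mcm2 to Mcm7, which draws these 6 genes towards it. Of the 4 members outside the mean, Cdc6 was the nearest (0.232), nearer than Mcm6 and Mcm7, and Cdt1 the farthest (0.549). The same 5 genes were nearest outside the lists with library size alone and with a prior count of 0.5.

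Markers of the cell types that the cultures could hold were listed beside these values. Col2a1, the main collagen of cartilage, was at 2838 ± 298 FPKM in RC and 943 ± 16.3 FPKM in RM, and at 1347 ± 23.8 FPKM in MC and 93.7 ± 2.22 FPKM in MM. All 8 chondrocyte markers were called lower in both model groups, beside 16.8% of all genes tested in rat and 37.7% in mouse, and their summed level was 4895 to 5528 FPKM in RC, 1948 to 1987 FPKM in RM, 2192 to 2230 FPKM in MC and 201 to 213 FPKM in MM. The counts of marker calls below stand beside 18.3% of all genes tested called higher and 16.8% lower in rat. In mouse these shares were 37.4% and 37.7%. Of the 6 fibroblast markers, 2 were called higher and 2 lower in RM, and 4 higher and 2 lower in MM. They summed to 3819 to 4310 FPKM in RC and 2863 to 3000 FPKM in RM, and to 2309 to 2341 FPKM in MC and 1663 to 1676 FPKM in MM. The sums were lower in both model groups, whereas the median log2 fold change of the 6 was −0.12 in rat and 0.21 in mouse. Dcn, 1 of the 6, was at 5.91 FPKM in RC and 28.9 FPKM in RM, and at 22.9 FPKM in MC and 601 FPKM in MM. Of the 6 macrophage and leukocyte markers only 3 passed the low-count filter in each species, of which 2 were called higher and 1 lower in RM and 3 higher in MM. They summed to 16.3 to 18.4 FPKM in RC, 29.5 to 31.8 FPKM in RM, 5.62 to 5.98 FPKM in MC and 32.1 to 33.5 FPKM in MM. Of these Cd14 rose to 24.1 FPKM in MM from 1.87 FPKM in MC, whereas the defining marker Ptprc was at most 0.0875 FPKM in any library and Adgre1 at most 0.141 FPKM. Endothelial markers summed to at most 0.504 FPKM in any library, and the 1 tested in mouse was called lower. Muscle markers summed to 3.02 to 4.0 FPKM in RC and 2.41 to 2.99 FPKM in RM, and to 3.66 to 4.16 FPKM in MC and 0.390 to 0.816 FPKM in MM, where both of those tested were called lower. The part of these marker differences in the licensing values was not tested.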

How the data were processed

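The members and gene lists were chosen with earlier results of these data known. For each species the authors deposited 1 table of raw counts per gene and library, and the same table holds FPKM that the authors made from the counts. Submitters' notes name HISAT2, HTSeq 0.11.2, GRCm38 and Rnor_6.0. Annotation release and strand setting: not given in the sources used here. Count divided by gene length and library total gave the deposited FPKM within 0.1% for all values checked (79104 rat, 86999 mouse).

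Counts were fitted per species in R 4.3.3 with edgeR 4.0.16 (filterByExpr, TMM, glmQLFit, glmQLFTest), with Benjamini-Hochberg adjustment over all genes tested. The difference between the species (mouse log2 fold change less the rat one) was fitted over genes shared by symbol, with scaling kept within a species. On simulated data with a log2 fold change of 1.5, edgeR recovered 99.5% of the changed genes in rat, 98.0% in mouse and 97.6% for the difference, with 2.96%, 4.90% and 1.05% of calls false. In each species 198 of the genes tested were changed, up or down at random, with the same spread for all genes. The simulation therefore does not cover a response as broad as that in mouse or the scaling difference between MC and MM.

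Alternatives were DESeq2 1.42.0, its size factors in edgeR, library size alone, no low-count filter, limma 3.58.1 on log2(FPKM + 1), a replicate block and leaving out each library. Nearest profiles used log2 CPM with a prior count of 2, centred within each species. The text names the members, the genes of the replication and cell cycle lists, the 5 nearest profiles, and Il6 and Mmp3, beside cell type markers and genes that overlap Mcm7, named for their values or position. P values set the difference of the group means against the spread between the samples of a group. The 3 rat libraries of a group varied more around each other than the mouse libraries did, with a biological coefficient of variation of 0.106 in rat and 0.0318 in mouse. The very small mouse P values rest on this small spread, and whether animals were pooled is not given. The test of the difference between the species used a spread estimated over both species together.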

Additional observations from a re-analysis of the deposited data

Results flagged for a closer look

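The values here are the log2 fold change in mouse (MM against MC) minus that in rat (RM against RC). Over the genes tested, 25.5% in rat were higher in RM with no overlap of FPKM, and 54.9% in mouse were lower in MM. For each of the 10 licensing genes every RM library lay above every RC library, and every MM library below every MC library. Their differences were −2.28 for Mcm2, −2.21 for Mcm3, −2.72 for Mcm4, −3.17 for Mcm5, −3.40 for Mcm6, −1.91 for Mcm7, −3.23 for Cdc6, −1.59 for Cdt1, −2.19 for Gmnn and −1.76 for Mcm10. This difference was not tested, since the genes were chosen on it.

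For the other genes the difference itself passed the edgeR test of the interaction at an adjusted P under 0.05. Their lists were also chosen with earlier results of these data known. Among origin firing genes it was −1.38 for Cdc45, −2.43 for Gins1, −2.19 for Gins2, −1.59 for Gins3, −1.14 for Gins4, −1.63 for Cdc7, −1.88 for Dbf4, −1.94 for Ticrr, −1.28 for Mtbp, −2.07 for Topbp1, −1.94 for Recql4, −1.32 for Donson, −1.84 for Wdhd1, −0.90 for Cdk2, −1.91 for Ccne1, −1.25 for Ccne2 and −3.35 for Ccna2. For the origin recognition complex it was −1.63 for Orc1, −0.43 for Orc2 and −1.49 for Orc6, and for the other MCM proteins −2.20 for Mcm8 and −0.43 for Mcm9. The Mcm9 difference no longer passed when any of 6 libraries was left out, with adjusted P from 0.0537 to 0.104.

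Regulators of licensing differed by −2.31 for Dtl, −1.43 for Skp2, −3.80 for Fbxo5, −0.82 for Cul4b, −0.46 for Lrwd1, −0.31 for Kat7 and −0.73 for Mcmbp. In the E2F and RB family the values were −1.48 for E2f2, 0.30 for E2f4, −2.45 for E2f7, −3.12 for E2f8, 0.80 for Rb1, −2.46 for Rbl1, −0.32 for Rbl2, −0.60 for Tfdp1 and −0.93 for Tfdp2, of which E2f4 fell to 0.00 with library size alone. The other cell cycle genes differed by −0.67 for Pcna, −3.26 for Mki67, −3.34 for Top2a, −2.64 for Ccnb1, −3.04 for Cdk1, −3.44 for Aurkb, −2.69 for Bub1 and −3.68 for Cenpf.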

How the results depend on the processing

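The members kept their direction under every alternative run, in rat with a median of 0.90 to 0.97 when a library was left out. In mouse their median log2 fold change moved from −1.47 to −1.75 with library size alone and to −1.25 with limma on log2(FPKM + 1), and lay between −1.50 and −1.43 when a library was left out.

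TMM against library size alone was the setting that mattered in mouse. With library size alone the replication list had 2 genes called higher in MM in place of 9, and the difference between the species had 1 called higher in place of 2, and limma, whose FPKM carry the library size only, gave 2 and 1 as well. The 8 other cell cycle genes had 0 called higher in mouse under both in place of 1, and Pcna reversed to −0.0663 and −0.0640. Over all shared genes the difference gave 2189 higher and 5398 lower with library size alone and 2214 and 5326 with limma, in place of 3429 and 3530. Limma also called 3639 mouse genes higher in place of 5521, and by the study criteria 1154 mouse genes higher in place of 1862, and 406 rat genes higher and 275 lower in place of 617 and 519.

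Reversed with library size alone in mouse were Orc3 (−0.14), Cul4a (−0.19), Ccne2 (−0.20) and E2f1 (−0.00890), and with limma the same 4 (−0.12, −0.18, −0.15 and −0.00634). The difference between the species reversed for Orc3 (−0.12), Cul4a (−0.21), E2f3 (−0.20) and E2f6 (−0.12) with library size alone, and with limma for these 4 (−0.12, −0.21, −0.18 and −0.12) and E2f4 (−0.00213).

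Leaving out 1 library, between 30 and 35 genes of the list were called higher in rat and 0 to 1 lower. Genes near 0 changed sign. In rat the values ran from −0.180 to 0.0647 for Orc3, −0.00199 to 0.153 for Lrwd1, −0.0441 to 0.0627 for Cul4a and −0.00699 to 0.0922 for Rbl2. In mouse they ran from −0.0545 to 0.0266 for Orc2 and −0.101 to 0.0612 for Orc5, and the Orc5 difference from −0.135 to 0.0252. None of these sign changes concerns a value that passed the test.

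With the replicate number as a block, 33 genes of the list were called higher in rat in place of 34, since Kat7 (0.24) had an adjusted P of 0.0544, and no other call changed among the genes of the replication and cell cycle lists, the 5 nearest profiles, Il6 and Mmp3. Samples with the same number correlated between −0.10 and 0.08 in rat and between 0.00 and 0.01 in mouse, and not every sample correlated best with its own number. These correlations show no pairing by number. They rest on deviations from the mean of 3 samples and cannot tell whether samples with the same number shared an animal or a day. The cause of the changes listed here was not tested. Of the members, Cdc6 had the fewest counts, 36 in its lowest MM library.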
